A study of Mus musculus with 18 samples.

Results

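The cathepsins are the proteases of the lysosome, and 10 cathepsin genes were followed here in RNA from mouse bone marrow mesenchymal stem cells (MSCs). The members Ctsa, Ctsb, Ctsc, Ctsd, Ctsf, Ctsh, Ctsk, Ctsl, Ctss and Ctsz were found by their symbols among the 27179 genes of the expression table, and all 10 were among the 14353 genes with a mean normalized count of at least 10 that were tested. The study compared 6 libraries of young MSCs, 6 of old MSCs cultured alone and 6 of old MSCs kept for 7 days with young MSCs across a membrane with 0.4 µm pores, which passes soluble factors but not cells; the last are called rejuvenated old MSCs. All cells were untransformed cultures of genotype C57BL6 sampled at day 7, and the study's methods give donors of 6 weeks for the young and 18 to 24 months for the old group, all male, with cells used at passages 2 to 5. Old MSCs kept with other old MSCs were not analysed here, so the presence of any second culture and the presence of young cells cannot be told apart in the old against rejuvenated old comparison. The labels call the 6 libraries of a group biological replicates without tying them to separate animals, so p-values measure the spread between these cultures.

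Cathepsins are made as inactive precursors, tagged with mannose 6-phosphate in the Golgi, carried to the acidic lysosome and activated there by cleavage. Ctsb, Ctsc, Ctsf, Ctsh, Ctsk, Ctsl, Ctss and Ctsz encode cysteine proteases of the papain family, Ctsd encodes an aspartic protease and Ctsa a serine carboxypeptidase that also protects other lysosomal enzymes. Most are present in nearly every cell type, whereas cathepsin S is best known from antigen-presenting cells, cathepsin C from granule-bearing immune cells and cathepsin K from bone-resorbing osteoclasts and from fibroblasts, where it cleaves collagen. Cystatins and kininogens are natural inhibitors of the cysteine cathepsins, and the transcription factors TFEB and TFE3 are known to drive many lysosomal genes through E-box motifs that contain CACGTG.

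The promoter stretches below are shown for the 4 genes with a CACGTG and the 3 with GAGGAAG, the purine-rich core recognised by PU.1, a factor of myeloid cells, in the window around their start. The window of Ctsz held neither, and the motifs were not tested against expression. They come from the RefSeq promoter table for GRCm38.p6 (mm10), which held windows of 300 bases for 8 of the 10 genes, Ctsb and Ctsh not among them, with a pair of windows for Ctsa, of which the downstream one is shown. The Ctsl and Ctsa stretches lie inside the gene spans given below, so their CACGTG is downstream of the outer 5′ end of each span. Each line is 70 bases, 5′ to 3′ on the gene's own strand, with the motif in capitals; ACTTCCTC and CTTCCTC are the same motifs read on the opposite strand. Ctsd lies at chr7:142387878-142387947 on the minus strand, Ctsa at chr2:164833728-164833797 on the plus strand, Ctsl at chr13:64370701-64370770 on the minus strand, Ctsf at chr19:4855055-4855124, Ctss at chr3:95526736-95526805, Ctsc at chr7:88277905-88277974 and Ctsk at chr3:95499125-95499194, the last 4 on the plus strand.
Ctsd: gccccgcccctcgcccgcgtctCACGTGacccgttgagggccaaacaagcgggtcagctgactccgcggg
Ctsa: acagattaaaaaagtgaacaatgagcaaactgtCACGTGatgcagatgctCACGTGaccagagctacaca
Ctsl: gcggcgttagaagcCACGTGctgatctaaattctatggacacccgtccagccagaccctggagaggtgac
Ctsf: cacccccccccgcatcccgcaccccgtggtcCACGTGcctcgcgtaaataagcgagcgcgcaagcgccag
Ctss: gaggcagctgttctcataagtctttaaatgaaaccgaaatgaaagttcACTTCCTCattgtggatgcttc
Ctsc: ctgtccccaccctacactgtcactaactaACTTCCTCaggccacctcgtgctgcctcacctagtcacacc
Ctsk: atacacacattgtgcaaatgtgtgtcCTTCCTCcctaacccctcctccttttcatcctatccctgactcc

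The motif CACGTG was found in 4 of the 9 cathepsin windows and in 7.15% of all 32851 promoter windows. The 4 were those of Ctsd, Ctsf and Ctsl and the downstream window of Ctsa. The other Ctsa window, at the start of the gene span, held no CACGTG. Whether these shares differ was not tested. The longer form TCACGTGA was found in the downstream window of Ctsa, in that of Ctsd and in 0.974% of all windows. The palindrome that adds a G before and a C after TCACGTGA was found in none of the cathepsin windows and in 0.326% of all. GAGGAAG was found in the windows of Ctsc, Ctsk and Ctss and in 13.6% of all windows, and its longer form GAGGAAGT in those of Ctsc and Ctss and in 3.20% of all. In the Ctss window the longer form began 2 bases before the annotated start. All strings were searched on both strands. The same palindrome with CATGTG at its centre was in no cathepsin window and in 0.180% of all, and the general E-box CANNTG, which includes every CACGTG, was in the windows of 6 of the 8 genes and in 72.3% of all. Of strings that share letters with GAGGAAG, the 9-base form AGAGGAAGT was in no cathepsin window and in 1.00% of all, and GGAAGTG, a site of ETS factors, was in that of Ctss and in 11.004% of all. The AP-1 site TGANTCA was in none and in 7.81% of all, and the Runx site TGTGGT was in a window of Ctsa and in 16.8% of all. The TATA box, written TATAAA, was found for Ctss on the opposite strand and in 13.6% of all windows, the CCAAT box for Ctsf and Ctsz and in 37.4% of all, and the GC box GGGCGG for 5 genes and in 35.7% of all. These matches describe letters in a window and not binding. The windows also differed in base composition: the share of G and C was 67.3% for Ctsd but 43.7% for Ctsk and 44.0% for Ctss.

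The libraries held 22936251 to 29559194 reads on genes, recovered from the deposited normalized counts, and the deepest was 1.29 times the shallowest. Checks of the cultures against their labels showed large differences between young and old MSCs. Ddx3y, Eif2s3y, Kdm5d and Uty, genes of the Y chromosome, had 0 to 2 reads in each young library and 529 to 2496 reads in each old and rejuvenated old library, although the methods describe male donors; Xist, the RNA of the inactive X chromosome, had 19 to 40 reads in young and 2 to 15 reads in the other libraries. The summed normalized count of 16 macrophage markers was 972 to 1104 in young, 18082 to 22410 in old and 18000 to 21808 in rejuvenated old MSCs. Among 9 stromal markers, Cd44 and the collagen genes Col1a1 and Col1a2 were abundant in every library. In young against old MSCs 5 of the 9 were higher and 4 lower, beside 41.6% of all genes tested called higher and 44.1% lower. Thy1 had 161 to 222 reads in young and 0 to 3 reads in old MSCs, and Nt5e (4.15 on the log2 scale) and Ly6a, which encodes Sca-1 (2.02), were also higher in young MSCs, while Eng was far lower, at 147 to 175 against 7008 to 7681 normalized counts. With co-culture Ly6a was higher (1.07) and Col1a1 (-0.41) and Col1a2 (-0.38) were lower. Rejuvenated old replicate 1 stood apart for Thy1, with a normalized count of 21.6 against 0.951 or less in the other 5, and for Cd34, with 402 against 24.2 to 41.9; Cd34 was 6787 to 7191 in young MSCs. Donor age and these other differences between the young and old cultures cannot be told apart, and fewer cells of a type and less RNA per cell cannot be told apart in bulk RNA.

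Co-culture with young MSCs changed 6 of the 10 cathepsins in old MSCs, 3 downward and 3 upward (limma, Benjamini-Hochberg adjusted p below 0.05); over all genes tested, 41.6% passed the same test, 20.6% lower and 21% higher. The decreases included the most abundant members: Ctsb fell by 33.3%, Ctsd fell by 28.6% and Ctsa fell by 7.04%, while Ctsh, Ctsz and Ctsf rose by 12.5%, 9.42% and 9.16%. Ctsb and Ctsd were lower in every rejuvenated old library than in any old library and Ctsh was higher in every one, so that 3 of 10 members did not overlap between the groups, against 22% of all genes tested, 11.6% lower and 10.4% higher. The median log2 fold change of the 10 members was -0.04, beside 0.01 over all genes, and the median of the absolute change was 0.12, beside 0.15. Leaving out rejuvenated old replicate 1 kept all 6 calls, with log2 fold changes of -0.57 for Ctsb, -0.48 for Ctsd, -0.09 for Ctsa, 0.17 for Ctsh, 0.15 for Ctsz and 0.15 for Ctsf. Without any 1 of the old libraries, or without rejuvenated old replicate 3, 4 or 5, only 5 calls were kept, with Ctsf or Ctsh lost.

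**Figure D1:**
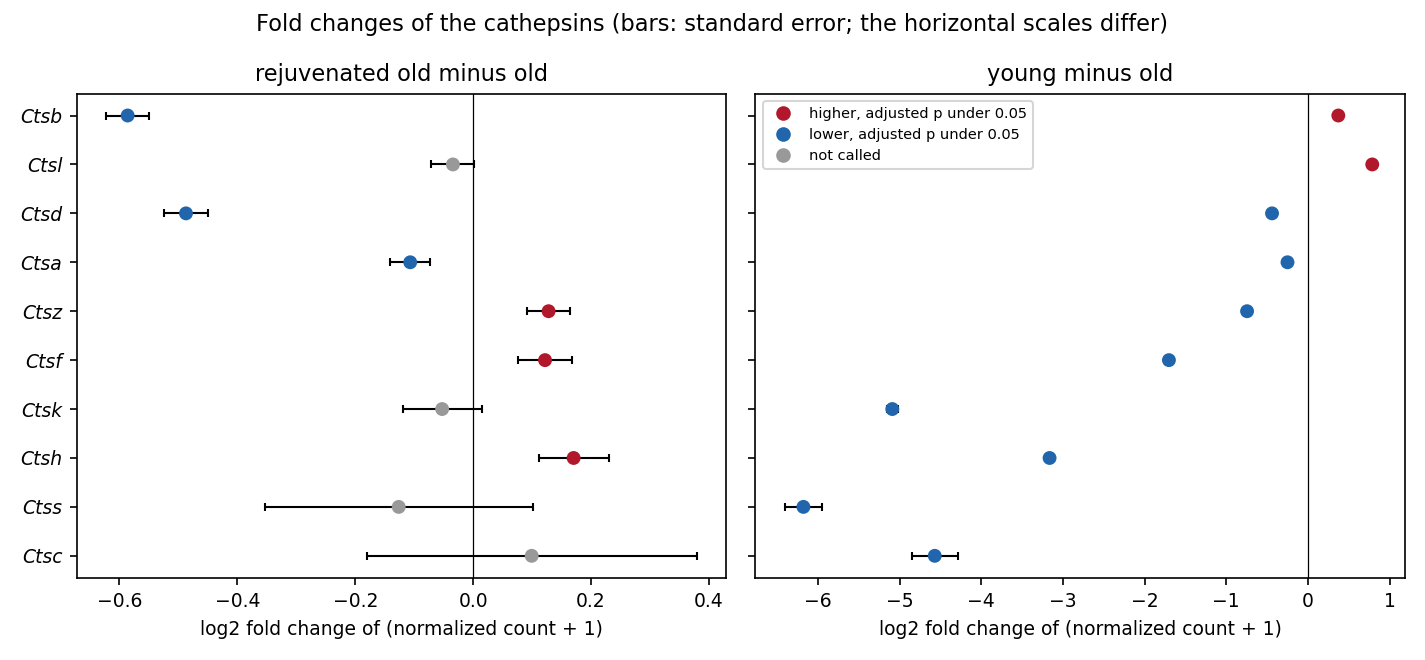
Log2 fold changes of the 10 cathepsins on the scale of log2(normalized count + 1), with bars of 1 standard error, for rejuvenated old minus old (left) and young minus old (right); the horizontal scales differ, both panels share the old libraries, and colour gives the direction of a call at adjusted p below 0.05. Ctsb and Ctsd stand at -0.59 and -0.49 on the left, where Ctsc and Ctss have the widest bars, and on the right the values run from -6.18 for Ctss to 0.79 for Ctsl.

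Young and old MSCs differed in all 10 cathepsins, with Ctsb and Ctsl higher and the other 8 lower in young MSCs, and none of the 10 overlapped between the groups. This count stands against a wide background, since 85.7% of all genes tested passed the same test in limma, 41.6% higher and 44.1% lower in young MSCs, and 73.9% did not overlap, 35.7% higher and 38.2% lower. The sizes set the members apart into a group of small and a group of large differences: Ctsa, Ctsb, Ctsd, Ctsl and Ctsz differed by less than 2-fold, whereas Ctsf, Ctsh, Ctsk and Ctss were 3.25-fold, 8.94-fold, 34.1-fold and 69.7-fold lower in young MSCs, with Ctsc between Ctsh and Ctsk. For the members the median of the absolute log2 change was 1.24, beside 0.60 over all genes. Between young and rejuvenated old MSCs, 9 of the 10 still passed the test, against 85.6% of all genes, 2 higher in young MSCs (41.5% of all genes) and 7 lower (44.1%), and Ctsd was the exception. The same 9 did not overlap, against 70.5% of all genes, 34% higher and 36.5% lower. The comparisons share libraries and are not independent of each other.

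**Figure D2:**
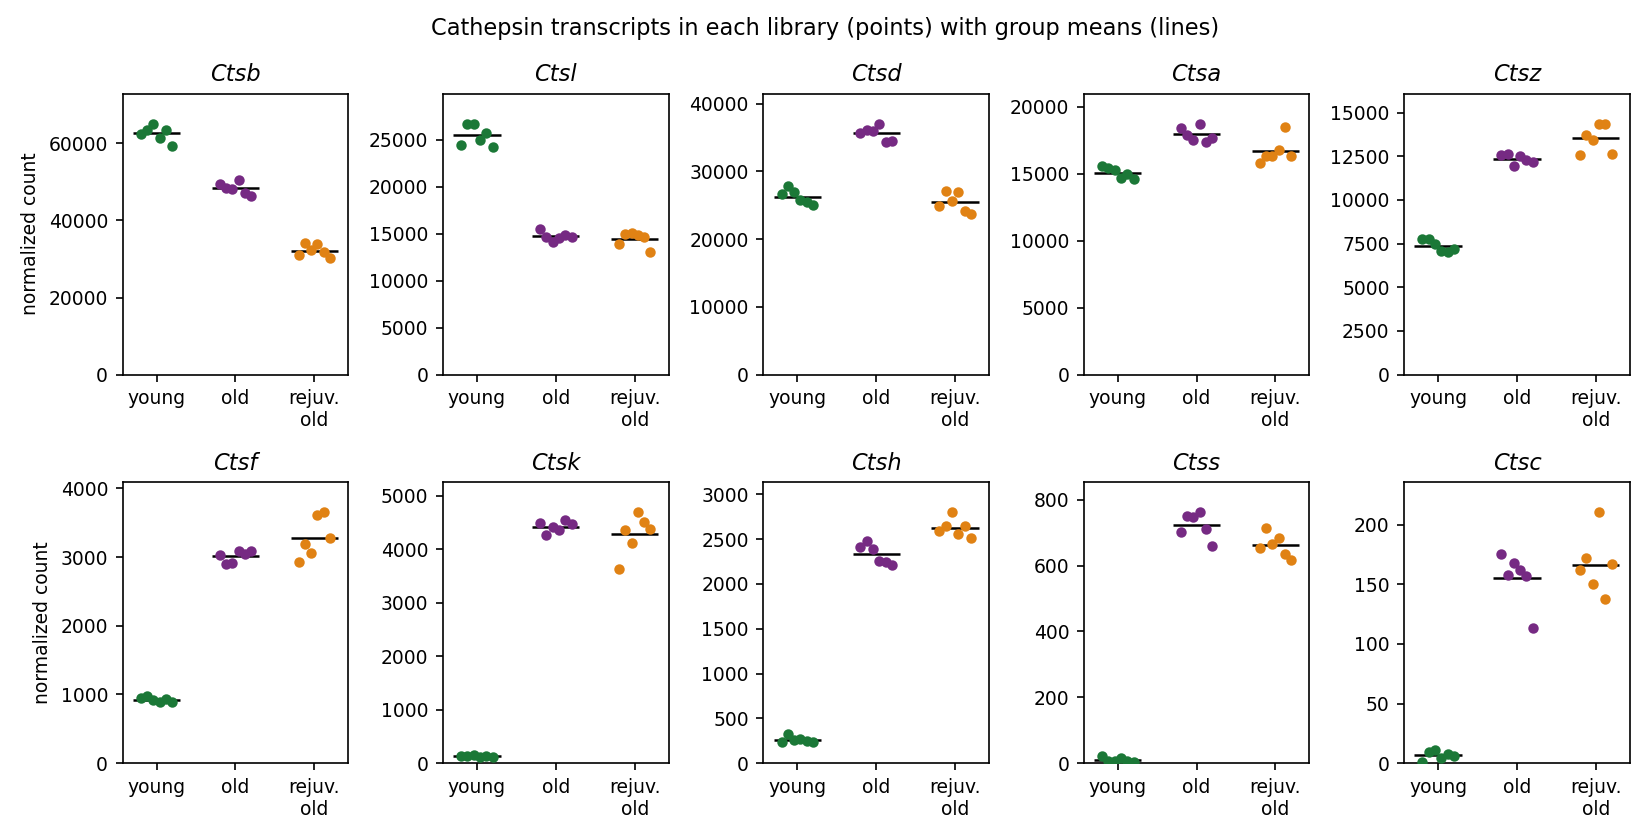
Normalized counts of each cathepsin (vertical axes from 0, a scale of their own for each gene) in the 6 young, 6 old and 6 rejuvenated old libraries (points), with the mean of each group as a line. The points for Ctsb fall from young through old to rejuvenated old, those for Ctsd are at a similar height in young and rejuvenated old, and those for Ctsk, Ctsh, Ctss and Ctsc lie near 0 in young MSCs only.

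Ctsb, which encodes cathepsin B, a cysteine protease that cuts within proteins and trims their C-terminal ends, had the highest normalized counts of the family (mm10 chr14:63122462-63145923). In young MSCs it ran from 59369 through a median of 62985 to 65089, in old MSCs from 46321 through 48280 to 50373 and in rejuvenated old MSCs from 30293 through 31976 to 34101. No group overlapped another, and co-culture moved Ctsb away from the young level rather than toward it. Co-culture gave a log2 fold change of -0.59 ± 0.04 (SE) and an adjusted p of 1.91e-11 in limma. Young MSCs were higher than old MSCs by 0.37 ± 0.04 and higher than rejuvenated old MSCs by 0.96 ± 0.04 on the log2 scale, with adjusted p of 1.75e-09 and 4.58e-17.

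Ctsl, encoding cathepsin L, a strong endopeptidase that also processes other lysosomal proteins, was higher in young MSCs and did not pass the test with co-culture (chr13:64361890-64370772). Its normalized count was 24273 to 26725 with a median of 25362 in young MSCs, 14169 to 15478 with a median of 14697 in old MSCs and 13102 to 15048 with a median of 14727 in rejuvenated old MSCs. The old and rejuvenated old libraries overlapped and all young libraries lay above both. The log2 difference was 0.79 ± 0.04 for young against old MSCs (limma, adjusted p = 2.12e-15). For rejuvenated old against old MSCs it was -0.03 (95% confidence interval -0.11 to 0.04, adjusted p = 0.485).

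Ctsd, the aspartic protease cathepsin D and a common marker of lysosomes, was the member at which rejuvenated old MSCs reached the young level (chr7:142375910-142387827). Young MSCs had 24997 to 27785 normalized counts with a median of 26225, old MSCs 34389 to 37063 with a median of 35788 and rejuvenated old MSCs 23725 to 27072 with a median of 25338. The rejuvenated old libraries overlapped the young ones and lay wholly below the old ones. The log2 fold change was -0.49 ± 0.04 for rejuvenated old against old MSCs (limma, adjusted p = 7.60e-10) and -0.44 ± 0.04 for young against old (adjusted p = 1.85e-10). Young and rejuvenated old MSCs differed by 0.05 (95% confidence interval -0.03 to 0.13, adjusted p = 0.230), but this match depended on the scaling: with every library scaled to the same total the difference was 0.14 and passed the test (adjusted p = 0.000745). It also depended on the chromosome: the 1032 tested genes of chromosome 7 had a median of 0.56 in young against rejuvenated old MSCs, and relative to that median Ctsd was lower in young MSCs, at -0.51. In young against old MSCs the median of chromosome 7 was 0.61 and Ctsd relative to it was at -1.05.

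Ctsa, encoding the carboxypeptidase known as protective protein for its hold on beta-galactosidase and neuraminidase, moved part of the way toward the young level (chr2:164832872-164841032). The normalized count was 14606 to 15573 with a median of 15115 in young, 17376 to 18738 with a median of 17780 in old and 15764 to 18502 with a median of 16331 in rejuvenated old MSCs. Rejuvenated old replicate 5, at 18502, lay among the old libraries, while the other 5 were between 15764 and 16787 and below every old library. The log2 fold change against old MSCs was -0.11 ± 0.03 for rejuvenated old MSCs (limma, adjusted p = 0.0157) and -0.25 ± 0.03 for young MSCs (adjusted p = 5.15e-07). Young MSCs were also lower than rejuvenated old MSCs, at -0.14 ± 0.03 (adjusted p = 0.000569), a call that was lost with every library scaled to the same total (-0.05, adjusted p = 0.135). Relative to the median of chromosome 2, Ctsa was at -0.15 in young against old and -0.07 in young against rejuvenated old MSCs.

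Ctsz encodes cathepsin Z, a carboxypeptidase that takes single residues from the C-terminal end (chr2:174427494-174439039). It ran from 7013 through a median of 7344 to 7757 in young, from 11970 through 12402 to 12622 in old and from 12592 through 13593 to 14373 in rejuvenated old MSCs. Old and rejuvenated old libraries touched at their edges and young libraries lay far below both. In rejuvenated old MSCs Ctsz rose by 0.13 ± 0.04 on the log2 scale (limma, adjusted p = 0.00731), away from the young level, and in young MSCs it was lower than in old MSCs, at -0.74 ± 0.04 (adjusted p = 6.84e-15).

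Ctsf encodes cathepsin F, a cysteine protease with an unusually long propeptide that itself resembles a cystatin (chr19:4855165-4860918). It was at 886 to 971 with a median of 927 in young, 2893 to 3088 with a median of 3034 in old and 2929 to 3654 with a median of 3230 in rejuvenated old MSCs. Rejuvenated old libraries spread more widely than old ones, with SDs of 293 and 84.1, and the groups overlapped. The rise with co-culture was 0.12 ± 0.05 on the log2 scale (limma, adjusted p = 0.0357) and was the least certain of the 6 calls. It was lost without rejuvenated old replicate 4 (adjusted p = 0.102) or 5 (0.101), without old replicate 1 (0.0505), 2 (0.0748) or 3 (0.0719), and under 4 of the other settings. Young MSCs lay below old MSCs, at -1.70 ± 0.05 (adjusted p = 6.42e-20).

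Ctsh, whose product cathepsin H is chiefly an aminopeptidase, rose with co-culture without overlap (chr9:90054267-90076095). Its normalized count was 233 to 325 with a median of 251 in young, 2207 to 2481 with a median of 2318 in old and 2511 to 2800 with a median of 2612 in rejuvenated old MSCs. Every rejuvenated old library exceeded every old library, although the gap between the nearest ones was small. The log2 fold change was 0.17 ± 0.06 (limma, adjusted p = 0.0244), and the call was lost without old replicate 4 (0.0504), 5 (0.0508) or 6 (0.0544) or without rejuvenated old replicate 3 (0.0588). In young against old MSCs Ctsh was at -3.16 ± 0.06 (adjusted p = 8.06e-23), so that the rise with co-culture went away from the young level.

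Ctsk, encoding the collagen-cutting cathepsin K, was 110 to 152 with a median of 132 in young MSCs, 4269 to 4552 with a median of 4446 in old MSCs and 3636 to 4697 with a median of 4367 in rejuvenated old MSCs (chr3:95499210-95509387). Young libraries lay more than an order of magnitude below all others, and old and rejuvenated old libraries overlapped. The lowest rejuvenated old value belonged to replicate 1, the library that stood apart for Thy1 and Cd34. The log2 fold change was -5.09 ± 0.07 in young against old MSCs (limma, adjusted p = 1.78e-25) and -0.05 in rejuvenated old against old MSCs (95% confidence interval -0.19 to 0.09, adjusted p = 0.568).

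Ctss, encoding cathepsin S, which frees MHC class II molecules of the invariant chain, showed the widest gap of the family (chr3:95526786-95556405). Young MSCs had 4 to 19 reads per library, a normalized count of 4.12 to 20.7 with a median of 7.40. Old MSCs had 661 to 763 with a median of 729 and rejuvenated old MSCs 616 to 715 with a median of 660. The old and rejuvenated old groups overlapped, and the log2 difference between them was -0.13 (95% confidence interval -0.60 to 0.35; limma, adjusted p = 0.695). This fit uses 1 estimate of the spread for the 3 groups; fitted on the old and rejuvenated old libraries alone, Ctss was called lower (adjusted p = 0.0470), as it was by DESeq2 on the recovered reads (0.0366). In young against old MSCs the log2 fold change was -6.18 ± 0.23 (limma, adjusted p = 2.77e-17).

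Ctsc encodes cathepsin C, a dipeptidyl peptidase that activates the granule proteases of immune cells (chr7:88278024-88315861). Its group mean was the lowest of the members in each of the 3 groups, although Ctss was lower in 4 of the 6 young libraries. Ctsc had 1 to 10 reads per young library, 118 to 178 per old library and 148 to 218 per rejuvenated old library. The normalized count was 1.09 to 11.2 with a median of 6.82 in young, 114 to 175 with a median of 160 in old and 138 to 211 with a median of 164 in rejuvenated old MSCs. The last groups overlapped and differed by 0.10 on the log2 scale (95% confidence interval -0.48 to 0.68; limma, adjusted p = 0.808), and young MSCs were lower than old MSCs, at -4.57 ± 0.28 (adjusted p = 4.33e-13).

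Ctss, Ctsc, Ctsh and Ctsk, the members with the largest differences between young and old MSCs, were set beside markers of macrophages. Of the 16 markers, 15 were tested and all 15 were lower in young MSCs, beside 44.1% of all genes tested called lower and 41.6% higher. In young libraries 9 of the 16 had at most 3 reads each, Ptprc, Adgre1, Itgam, Tyrobp, C1qa, C1qb, C1qc, Laptm5 and Cx3cr1, with Ptprc and Adgre1 at 0 in all 6. C1qc, a subunit of complement C1q, was 1590 to 1912 in old MSCs and 0 to 3.09 in young MSCs, at least 531-fold lower with 3 reads per library as the floor; C1qa was at least 385-fold and Laptm5, a lysosomal protein of blood cells, at least 365-fold lower. Ptprc, which encodes CD45, was 162 to 208 in old and 122 to 171 in rejuvenated old MSCs. The study's methods describe flow cytometry for CD44, Sca-1, CD31, CD34 and CD45 on the preparations and no sort. With co-culture, 13 of the 15 markers tested did not pass, Cd68 was lower (-0.32, limma, adjusted p = 0.000102) and Itgam was higher (0.48, adjusted p = 0.00548). Over all genes tested, 41.6% passed the same test with co-culture, 20.6% lower and 21% higher. The part of macrophage transcripts in the cathepsin differences was not tested.

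**Figure D3:**
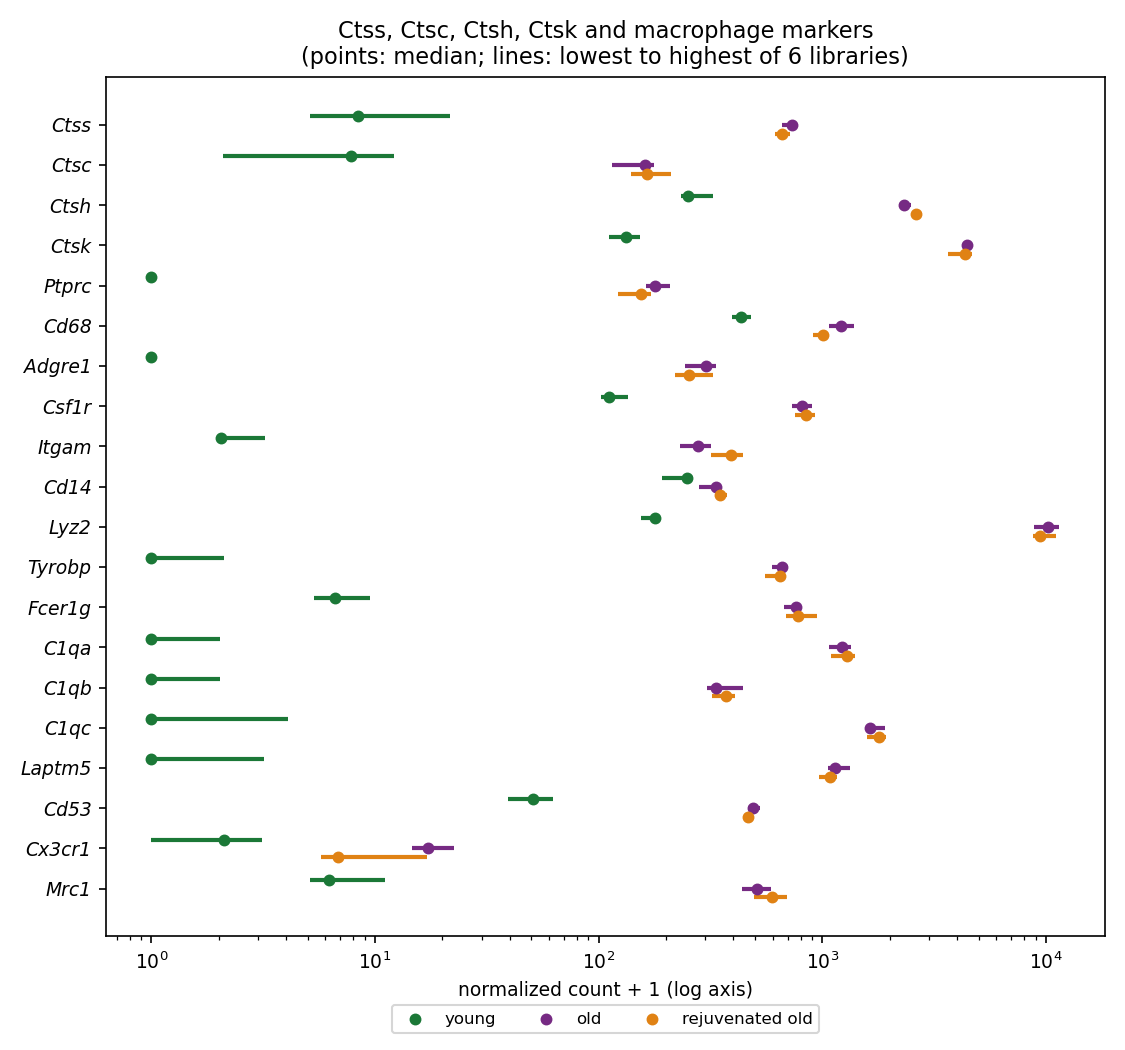
Median (points) and lowest to highest value (lines) of 6 libraries a group for Ctss, Ctsc, Ctsh, Ctsk and the 16 macrophage markers, on a log axis of normalized count + 1. Young libraries lie to the left for all of these genes, from a median of 0 for Ptprc to 434 for Cd68, and old and rejuvenated old libraries lie close together except for Cx3cr1, Itgam and Cd68.

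Cathepsin K is also a product of osteoclasts, and 8 osteoclast markers were read for that reason. Acp5, Calcr, Ocstamp and Dcstamp had at most 3 reads in each old library, where Ctsk had 4102 to 4796 reads. The summed normalized count of the 8 markers was 744 to 897 in old and 1124 to 1233 in young MSCs, and most of it came from Nfatc1, with a mean of 742 in old and 840 in young MSCs. The part of osteoclast transcripts in the Ctsk difference was not tested. Mmp9, a gelatinase, was higher in young MSCs (2.96 on the log2 scale; limma, adjusted p = 1.79e-13), as were Oscar (0.78, adjusted p = 0.00457) and Nfatc1 (0.18, adjusted p = 0.000744). With co-culture Mmp9 was at -0.50 (limma, adjusted p = 0.0245) and Nfatc1 at -0.15 (adjusted p = 0.00915). The Mmp9 call rested on 20 to 40 reads per old and 15 to 31 per rejuvenated old library, and held under 23 of 29 alternative settings.

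Levels of different cathepsins were compared as normalized counts per kb of transcript, since longer transcripts collect more reads. In young MSCs Ctsb, Ctsl and Ctsd led with 13184 ± 422, 12922 ± 545 and 12358 ± 494 normalized counts per kb (SD, n = 6), and the ranges of these 3 neighbours overlapped. In old MSCs the order was Ctsd at 16746 ± 485, Ctsb at 10182 ± 317, Ctsz at 8576 ± 178, Ctsl at 7479 ± 220 and Ctsa at 4919 ± 145, with no overlap between neighbours. In rejuvenated old MSCs Ctsd again led at 11958 ± 664, followed by Ctsz at 9385 ± 549, and then by Ctsl at 7310 ± 383 and Ctsb at 6786 ± 323, whose ranges overlapped. On this scale Ctsb led the members in young MSCs and stood below Ctsd, Ctsz and Ctsl in the mean of rejuvenated old MSCs. The order depends on the transcript lengths taken, 4.74 kb for Ctsb against 2.13, 1.44 and 1.97 kb for Ctsd, Ctsz and Ctsl. Not divided by length, the mean of Ctsb was the highest in rejuvenated old MSCs too, at 32187 against 25435 for Ctsd. Ctsk was at 2929 ± 67.6 per kb in old MSCs, above Ctsf and Ctsh, and at 86.0 ± 10.9 per kb in young MSCs, below both. Ctsf and Ctsh overlapped in old MSCs, at 1519 ± 42.5 and 1442 ± 68.7 per kb, and Ctsc had the lowest mean in each of the 3 groups.

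The 10 cathepsins together held 0.542 ± 0.015% of all normalized counts of young, 0.520 ± 0.0092% of old and 0.417 ± 0.014% of rejuvenated old MSCs (SD, n = 6). Summed per kb the shares were 0.437 ± 0.0077%, 0.502 ± 0.0064% and 0.413 ± 0.010%, so that the mean of old MSCs was below that of young MSCs on the first scale, where the ranges overlapped (0.512 to 0.535% and 0.519 to 0.558%), and above it on the second; neither difference was tested. Rejuvenated old MSCs were lowest in the mean on both scales, and their highest library lay below the lowest old library on each, 0.432% against 0.512% of counts and 0.428% against 0.493% per kb. Within the family, Ctsb made up 27.2% of the per kb sum of young MSCs, 18.7% of that of old and 14.5% of that of rejuvenated old MSCs, while Ctsz rose from 10.6% through 15.8% to 20.1%. Ctsk held 0.177% of the per kb sum in young and 5.39% in old MSCs.

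Of 14 other cathepsin genes, only Ctso had enough reads to be tested. Ctso, encoding cathepsin O, was 444 to 497 with a median of 466 in young, 607 to 737 with a median of 636 in old and 611 to 715 with a median of 703 in rejuvenated old MSCs. It was lower in young than in old MSCs (-0.46, limma, adjusted p = 2.83e-08) and did not pass the test with co-culture (0.08, adjusted p = 0.214). The placental cathepsins Ctsj, Ctsm, Ctsq, Ctsr, Cts3, Cts7 and Cts8 were at 0 reads in every library, as was Ctsll3.

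Of 17 inhibitors of cathepsins listed, 15 were among the genes measured and 8 were tested. With co-culture 3 were higher and 5 not called, beside 21% of all genes called higher and 20.6% lower. In young against old MSCs 2 were higher and 6 lower, beside 85.7% of all genes called, 41.6% higher and 44.1% lower. The totals called lie near the share over all genes, and whether the split by direction differs from that share was not tested. Cst3, encoding the secreted inhibitor cystatin C, had 11171 to 12471 normalized counts in young, 5035 to 5702 in old and 5478 to 6658 in rejuvenated old MSCs. It was thus higher in young than in old MSCs (1.16, limma, adjusted p = 3.32e-17) and rose slightly with co-culture (0.17, adjusted p = 0.00333). Cst6, encoding cystatin E/M, was 360 to 457 in young and 2.89 to 15.8 in old MSCs (5.66, adjusted p = 8.36e-14). The kininogen genes went the other way: Kng1 had 0 to 2 reads in young libraries against a normalized count of 2481 to 2695 in old MSCs, at least 816-fold lower in young MSCs, and Kng2 was 4.35 to 11.3 in young, 2907 to 3326 in old and 3817 to 5461 in rejuvenated old MSCs. Kng2 rose with co-culture by 0.59 (adjusted p = 0.00115). Kng1 was at 2622 to 3720 in rejuvenated old MSCs, a difference of 0.31 from old MSCs that was not called (limma, adjusted p = 0.213). It was called under 5 of 29 alternative settings. Kng1 and Kng2 are close relatives whose reads may be split between them. Serpina3g, a serpin that can inhibit cysteine cathepsins, rose most of the 3, by 0.87 (adjusted p = 9.68e-07), from 130 to 180 in old to 256 to 333 in rejuvenated old MSCs.

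Of 13 genes that sort and activate lysosomal enzymes, 7 were lower with co-culture, 1 higher and 5 not called, beside 20.6% of all genes called lower and 21% higher; their median log2 fold change was -0.16, beside 0.01 over all genes. Igf2r, the large mannose 6-phosphate receptor that carries cathepsin precursors to the lysosome, was 6068 to 6735 in young, 4751 to 5306 in old and 2435 to 3634 in rejuvenated old MSCs. Like Ctsb, it was higher in young than in old MSCs (0.34, limma, adjusted p = 3.25e-05) and fell with co-culture (-0.66, adjusted p = 2.71e-08), with no overlap between groups. Psap, whose product prosaposin is cut by cathepsin D into activators of lipid breakdown, fell by 0.38 on the log2 scale with co-culture (adjusted p = 6.22e-09), from 63567 to 68405 in old to 49055 to 52252 in rejuvenated old MSCs. Scarb2, the carrier of glucocerebrosidase, fell by 0.31 (adjusted p = 0.00144). M6pr, the small mannose 6-phosphate receptor, was the member that rose (0.15, adjusted p = 0.000153). In young against old MSCs 3 of the 13 were higher and 10 lower, beside 85.7% of all genes called, 41.6% higher and 44.1% lower. Sorl1, a sorting receptor, had 1 to 5 reads in young libraries and 122 to 182 in old ones. Nagpa, which uncovers the mannose 6-phosphate tag, was at -1.31 in young against old MSCs (adjusted p = 1.35e-18), and Gga2, an adaptor at the Golgi, at 1.18 (adjusted p = 3.52e-17).

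**Figure D4:**
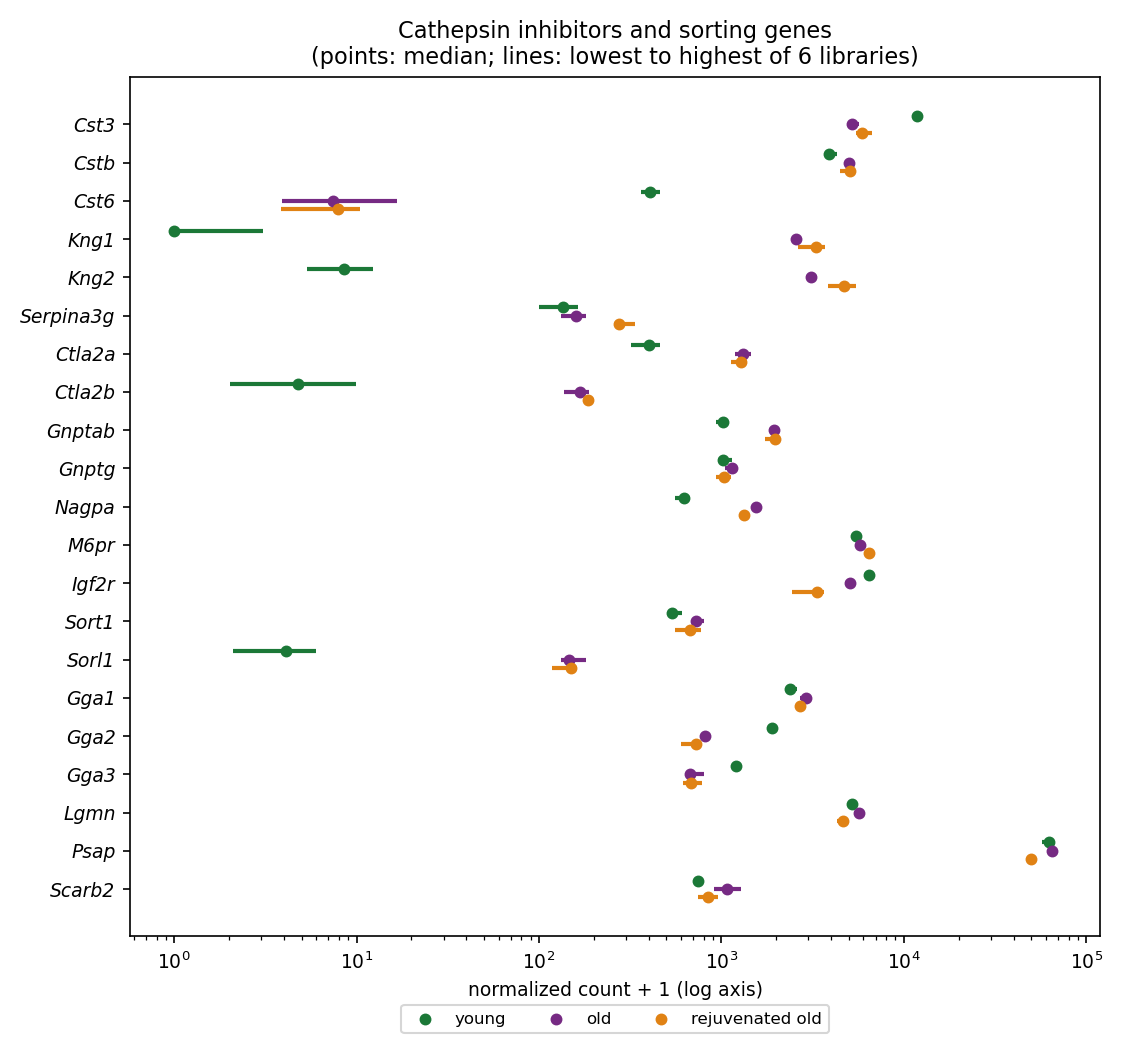
Median (points) and lowest to highest value (lines) of 6 libraries a group for the 8 tested cathepsin inhibitors (Cst3 to Ctla2b) and the 13 sorting and processing genes (Gnptab to Scarb2), on a log axis of normalized count + 1. Cst3 and Cst6 are highest in young MSCs, Kng1 and Kng2 lie near 0 there, and Igf2r falls from young through old to rejuvenated old MSCs.

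Of the 4 factors of the TFEB family, 1 was called lower with co-culture, beside 20.6% of all genes tested called lower and 21% higher. Tfe3 was 2833 to 3069 in old and 2587 to 2761 in rejuvenated old MSCs (-0.12, limma, adjusted p = 0.00102), and Tfeb (-0.11, adjusted p = 0.215), Mitf (-0.07, adjusted p = 0.263) and Tfec (-0.34, adjusted p = 0.259) did not pass the test. In young MSCs Mitf was higher than in old MSCs, at 1125 to 1210 against 385 to 477 (limma, adjusted p = 4.74e-18). Tfe3 was higher in young MSCs by 0.07 (adjusted p = 0.0265), with overlapping groups and a call under 24 of 29 alternative settings. Tfec, a relative found in macrophages, was at 0 reads in all 6 young libraries against 18 to 43 reads in old ones. Tfeb did not pass the test in young against old MSCs (0.003, limma, adjusted p = 0.971). Over all genes tested, 41.6% were called higher and 44.1% lower in young MSCs.

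The gene nearest to each cathepsin in its profile over the 18 libraries was sought among the 14353 genes tested, passing over those with a predicted or no symbol. Nearness was the root mean square difference of log2 values centred on their mean. Nearest to Ctsd was Lamp1, the major lysosomal membrane glycoprotein, at 0.0480, with group means of 32440 (young), 42372 (old) and 31396 (rejuvenated old). Nearest to Ctsk was Mmp2, a gelatinase of stromal cells, at 0.166, and its mean was 1498 in young and 45818 in old MSCs. Nearest to Ctss was Csf2rb2, a cytokine receptor chain of myeloid cells, at 0.295, and nearest to Ctsh was Arhgdib, a GTPase regulator best known from blood cells, at 0.116. For the other members the nearest genes were Svil for Ctsb, Ngdn for Ctsl, Napa for Ctsa, Nek6 for Ctsz, Fam20a for Ctsf and Rassf6 for Ctsc, at 0.0437 to 0.330. Within the family, the nearest pair was Ctsa and Ctsd at 0.171, while the member nearest to Ctss was Ctsk, at 0.648, and the member nearest to Ctsk was Ctsc, at 0.554.

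Ctsk and Ctss are neighbours on chromosome 3 with a gap of 17398 bases. Both were far lower in young MSCs, and the 10 other tested genes within 200 kb were read to see whether the stretch as a whole differed. Of these, 5 were lower and 4 higher in young than in old MSCs, close to the 44.1% lower and 41.6% higher of all genes tested, with a median log2 fold change of -0.15. The lowest was Ecm1, which encodes an extracellular matrix protein, at -4.18, followed by Adamtsl4 at -3.32, and the highest value among them was 0.82. Over the 678 tested genes of chromosome 3 the median was 0.04. Ctsb on chromosome 14 and Ctsl on chromosome 13 kept their direction in young against old MSCs after the median of their chromosome was taken off, at 0.19 and 1.09.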

How the data were processed

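RNA from 18 cultures of mouse MSCs, 6 a group, was read from a table of 27179 genes. Per the labels and the paper, the authors used a stranded mRNA kit, HISAT2, StringTie, featureCounts and DESeq2 with mm10; versions, gene annotation and the strand setting of the counting are not given in the sources used here. The deposited values are a signal, with each library's reads divided by its own size factor, and whole reads were recovered for 100% of values (within 0.01 of a read), which gave depths of 22936251 to 29559194 reads. A gene with at most 3 reads in each library of a group was taken as at the floor, which covers counting error only. Every column was mapped to its sample through its title.

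The main test was limma 3.58.1 (R 4.3.3) on log2(value + 1), with a mean for each of the 3 groups, a prior variance that follows the mean, genes with a mean of at least 10, and Benjamini-Hochberg adjustment over 14353 genes. A fold change on this scale understates the change of genes with few reads. The test was checked on simulated data with 200 changed genes, in the rejuvenated old group only, and the same setting of spread for every gene. In the data 5971 genes were called in rejuvenated old against old MSCs, so that check does not cover changes this broad. Alternatives were pseudocounts of 0.5 and 10, no filter and a mean of at least 50, scaling to the same total or the same 75th percentile, a fit of 2 groups, a single prior variance, a replicate block, edgeR 4.0.16 and DESeq2 1.42.0 on the recovered reads, leaving out each library, and subtraction of the median of the gene's chromosome.

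The cathepsins and all gene lists were chosen with earlier results of these data known. Genes besides the cathepsins were named from, in each list, the 3 genes with the largest change among those called against old MSCs, taken once for rejuvenated old and once for young MSCs, and the gene with the nearest profile to each cathepsin; other names, such as M6pr, the remaining TFEB family and the markers at the floor, were given after their values were seen. Levels per kb used the longest GENCODE vM21 transcript paired with a RefSeq mRNA, which was found for 20437 genes holding 94.6% of the normalized counts. Positions and promoters came from RefSeq for GRCm38.p6, joined on the Entrez gene number or symbol. Tables and figures were made with Python 3.11.15, numpy 2.4.6, pandas 2.3.3, scipy 1.17.1 and matplotlib 3.10.9.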

Additional observations from a re-analysis of the deposited data

Results flagged for a closer look

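In a test for a single library far from the other 5 of its group (Dixon's ratio, 95% level), 13 of 123 groups tested stood out, where chance gives about 1 in 20; 3 were cathepsins. Ctsa in rejuvenated old replicate 5 had a normalized count of 18502, against 15764 to 16787 in the others. Ctsc in old replicate 6 was at 114, against 157 to 175, and Ctsh in young replicate 2 was at 325, against 233 to 266. Rejuvenated old replicate 1 stood out for Thy1 at 21.6 and Cd34 at 402, and rejuvenated old replicate 4 for Eng at 8158 and Kdr at 9.66. Old replicate 2 stood out for Kdr at 19.7 and old replicate 4 for C1qc at 1912. The others were single libraries with up to 3 reads of genes at or near 0 in young MSCs: Kng1 at 2.06, C1qc at 3.09 and C1qa at 1.03 in young replicate 6, and Itgam at 2.23 in young replicate 3.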

How the results depend on the processing

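In young against old MSCs all 10 cathepsins were called under each alternative with a test, and in young against rejuvenated old MSCs 9 were, although with the same total Ctsa was lost (-0.05) and Ctsd was gained (0.14). In rejuvenated old against old MSCs 5 to 7 were called, and 5 to 6 with a library left out. Ctsb, Ctsd, Ctsa and Ctsz kept their calls throughout; Ctsf lost its call under 9 alternatives and Ctsh under 4, all leaving out 1 library, and Ctss gained one under 2. Minus the median of its chromosome, Ctsd in young against rejuvenated old MSCs turned to -0.51. The share of the 10 cathepsins summed per kb was 0.437% in young and 0.502% in old MSCs. Fold changes with co-culture near 0 changed sign with a library left out: Sorl1 ranged from -0.090 to 0.0013, Oscar from -0.24 to 0.064 and Thy1 from -0.35 to 0.55. Libraries that shared a replicate number did not deviate together (correlations of -0.15 to 0.07), so the numbers were not read as pairs; with a replicate block 6, 10 and 9 cathepsins were called in the 3 comparisons, and 5769 in place of 5971 genes passed in rejuvenated old against old MSCs. Only 1 replicate, rejuvenated old replicate 6 set against the old libraries, correlated best with its own number. The depth limits Ctsc and Ctss in young MSCs, at 1 to 19 reads.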
